A study of Mus musculus with 70 samples.

Results

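Lung tumours of the same renal carcinoma line that had reached the lung by 2 routes were compared after serial passage in mice. In the first route, cells were injected into the tail vein and formed lung tumours without any tumour of the kidney (T-LM). In the second, cells were implanted under the kidney capsule and formed lung metastases spontaneously (K-LM), and the cells recovered from those metastases went back under the kidney capsule at each passage. The comparison took all 4 samples named as tail-vein tumours and all 3 named as lung metastases of kidney origin at passage 6 (P6), which are 7 of the 65 RNA samples and of the 70 arrays of the series.

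RENCA is an epithelial line from a kidney carcinoma of the BALB/c mouse. Per the study's methods the line carried GFP from a lentiviral vector, all hosts were 6-week-old immunocompetent female BALB/c mice, and recovered tumours were digested and kept in culture until GFP-negative cells were no longer seen. The study describes the RNA as that of the GFP-carrying cells isolated in this way, while the labels give homogenised samples with the tumour as source. All groups share this line, label and host strain. The sources name no deletion, drug treatment or second transgene in any group. P0 is the line before any passage, and KPT is the kidney primary tumour of the implanted mice. The labels give the passage but no time in the animal, and do not say whether replicates of a group are separate mice or separate passage lineages, so the p-values measure only the spread between these samples, which may be technical.

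RNA was labelled with Cy5 and hybridised to single-colour Agilent arrays. A level is the log2 signal of a probe minus the 75th percentile of its array. That percentile was taken over the 12219 probes well above background on all 70 arrays. Thus 0 is the brightness of a well expressed gene and each unit is a 2-fold step. Over all probes the 75th percentile, which was not the one subtracted, is given for brightness only. It was 315 to 590 intensity units on the T-LM P6 arrays and 484 to 520 on the K-LM P6 arrays. Of all probes, 31.6% to 37.3% were well above background on the former against 34.4% to 35% on the latter. The number of arrays limits the precision. All 3 K-LM P6 arrays lie on 1 slide that was read with a later version of the scanner software, and each T-LM P6 array lies on a different earlier slide. The slide difference was therefore estimated for each probe from 5 RNA samples hybridised on both array sets (P0 replicates 1 and 2, KPT P6 replicates 1, 2 and 4) and removed inside the fit. For the same RNA, 1202 of 19895 probes (6.04%) differed between the array sets, 190 brighter and 1012 dimmer on the later slide. Every K-LM P6 level given for a named gene has its fitted slide term subtracted.

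Cells that enter a vein are carried passively to the lung capillaries and lodge and grow there. Cells that start in the kidney must leave a primary tumour, enter the blood and survive in it before they reach the same bed. Gene classes that tumour and host cells use in the lung include chemokines, which attract leukocytes, acute-phase proteins, which are secreted under IL-6 and STAT3 signalling, and interferon targets, which form an antiviral and antigen-presenting programme.

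The labelled cell type was checked against its markers first. Of 12 genes that mark RENCA epithelial identity, Krt8 and Krt18, the keratins of simple epithelia, Pax8, a kidney lineage factor, and Spp1, the secreted phosphoprotein osteopontin, were well above background on all 7 arrays and their differences did not pass the test (adjusted p = 0.792, 0.617, 0.199 and 0.566). Epcam, Pax2, Cdh16, Lhx1 and Cdh6 were well above background on fewer than 3 of the 7 arrays and were not tested. Of 6 tested members 1 was called (16.7%, beside 12.5% of all tested genes), the E-cadherin gene Cdh1, higher in T-LM. The median of the 6 was 0.08. The summed level of the 12 genes was 3.87 to 4.14 in T-LM P6 and 3.77 to 3.91 in K-LM P6, as measured. Their mean level did not overlap, at -4.73 to -4.38 and -5.25 to -5.2, also as measured. The 2 P0 RNA samples read -5.14 and -5 on the earlier slides and -5.52 and -5.33 on the later slide. KPT samples 1, 2 and 4 read -4.72, -4.62 and -4.6 against -4.73, -4.73 and -4.62.

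At an adjusted p of 0.01 or less in limma, 2149 of 19895 tested probes differed between the routes (10.8%). Of these, 1358 were higher in T-LM (6.83%) and 791 higher in K-LM (3.98%). With 1 probe a gene, 1428 of 11458 genes were called (12.5%), 862 higher in T-LM (7.52%) and 566 higher in K-LM (4.94%). All called genes had levels that did not overlap between the routes, against 44.1% of all tested genes. The median difference of all tested genes was 0.02 and the median standard error of a probe's difference was 0.21. A difference of at least 3 on the log2 scale was found for 99 of the genes higher in T-LM and 32 of those higher in K-LM. Within the groups, K-LM P6 replicate 3 was the K-LM sample nearest to T-LM in 571 of the 862 genes higher in T-LM, and T-LM P6 replicate 4 was the nearest T-LM sample in 76 of the 99 largest. Leaving out K-LM P6 replicate 1 lowered the count to 1191 probes, and leaving out replicate 2 of that group to 1292. With all 70 arrays in the fit the count was 801, or 435 with the slide as a random block. Under a percentile taken over all probes, 44.3% of called probes were higher in T-LM, against 63.2% in the fit given here, and the median of all tested probes moved to -0.12.

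**Figure D1:**
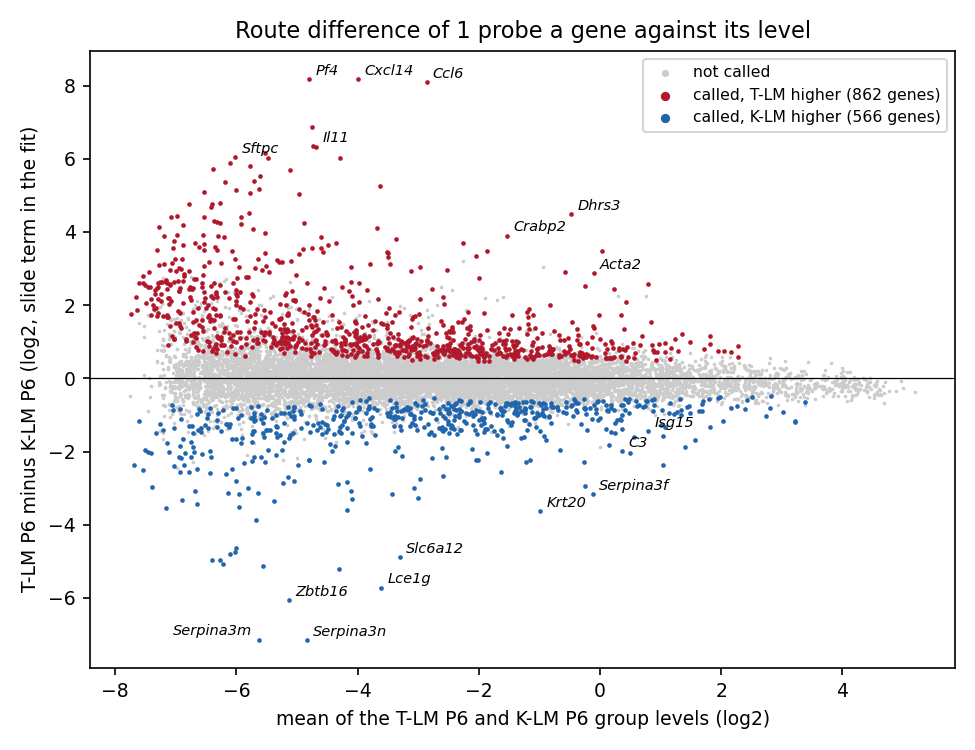
Each point is 1 gene, with the mean of the 2 group levels on the x axis (log2) and T-LM P6 minus K-LM P6 on the y axis (log2, slide term in the fit). Red points are the 862 called genes higher in T-LM, blue points the 566 higher in K-LM and grey points the rest. The largest differences in T-LM are those of Cxcl14 and Pf4, both at 8.18, and in K-LM those of Serpina3n and Serpina3m, at -7.14 and -7.13.

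Chemokines led the genes higher in T-LM. Of 10 CC chemokines tested, 6 were higher in T-LM and 1 in K-LM (70% called, beside 12.5% of all tested genes), with a median difference of 1.16. Of 11 CXC and CX3C chemokines, 6 were higher in T-LM and 1 in K-LM (63.6% called), with a median of 1.54, beside 0.02 over all genes. Members above background in T-LM alone pass the filter on dim probes, which favours T-LM in both lists. Over the 28 alternative settings the medians ran from -0.2 to 1.33 for CC and from 0.65 to 1.67 for CXC and CX3C chemokines. Cxcl14, a chemokine made by epithelia and fibroblasts, had levels of 0.86, 1.05, -0.74 and -0.75 in T-LM P6 replicates 1 to 4 and of -8.58, -8.54 and -7.12 in K-LM P6 replicates 1 to 3. All T-LM samples lay near the 75th percentile of their array, and no K-LM sample was well above background. The difference was 8.18 ± 0.72 (SE, adjusted p = 1.43e-06), or at least 117-fold once the K-LM side is set to the lowest signal that counts as well above background. Pf4, platelet factor 4, stood at -0.6, -0.29, -0.59 and -1.35 in T-LM and at -8.92, -8.86 and -8.89 in K-LM. Its K-LM values were all at background, and T-LM was at least 72.1-fold higher (8.18 ± 0.57, adjusted p = 1.55e-07).

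Ccl6, a mouse chemokine of myeloid cells, was at 1.73, 1.49, 1.05 and 0.49 in T-LM and at -7.06, -8.59 and -5.08 in K-LM. Only K-LM P6 replicate 3 was well above background for it, and the difference was 8.1 ± 0.83 (adjusted p = 7.19e-06). Ccl9, of the same chemokine group, differed by 6.34 and was also above background on 1 of the 3 K-LM arrays. Ccl3 and Ccl4, the macrophage inflammatory proteins, were at least 19.8-fold and at least 3.36-fold higher in T-LM. Cxcl12, the ligand of the receptor Cxcr4, differed by 5.05 ± 0.74 (adjusted p = 0.000187), with 1 K-LM array above background. Ppbp, another platelet chemokine, was at least 3.34-fold higher in T-LM. The neutrophil-attracting Cxcl2 and Cxcl5 differed by 1.54 and 1.8. Ccl8 at -1.07 and the membrane-bound Cx3cl1 at -1.07 ran the other way. Ccl2, Ccl7, Cxcl1 and Cxcl10 did not pass the test, with differences of -0.2, -0.45, 0.43 and -0.23.

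Il11 was the member of the IL-6 cytokine family that differed. Its levels were -1.62, -1.26, -1.14 and -2.06 in the T-LM samples, against -8.12, -8.28 and -7.16 in K-LM. Every T-LM sample was well above background and no K-LM sample was, and T-LM was at least 57.4-fold higher (6.33 ± 0.37, adjusted p = 3.14e-08). The list of this family and its STAT3 response had a median of -0.07 and 5.56% of its genes called, beside 12.5% of all tested genes. The other 17 tested genes of the list did not pass. Among them, Il6 itself differed by 2.41 (adjusted p = 0.0358), Stat3 by -0.36 (adjusted p = 0.147), and Socs3, the feedback inhibitor, by 0.27 (adjusted p = 0.492).

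Several myeloid genes were higher in T-LM beside the chemokines. Tyrobp, the DAP12 signalling adaptor of myeloid and NK cells, was at -2.06, -1.56, -2.9 and -3.33 in T-LM and at -8.77, -8.7 and -7.98 in K-LM. T-LM was at least 19.3-fold higher (6.02 ± 0.47, adjusted p = 4.14e-07), with K-LM at background throughout. Fcer1g, the shared signalling chain of Fc receptors, was at least 32.6-fold higher, and Clec4n, the lectin receptor dectin-2, at least 43.9-fold. Bcl2a1d, an inhibitor of apoptosis of blood cells, and Cd52, a leukocyte surface glycoprotein, were at least 23.8-fold and at least 16.6-fold higher. H2-Eb1, a chain of MHC class II, was at least 14.2-fold higher. Wfdc17, a small secreted protein of myeloid cells, differed by 6.01 ± 0.83 with 1 of 3 K-LM arrays above background.

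Of 23 macrophage and leukocyte markers, 13 were tested, 7 were higher in T-LM (Tyrobp, Fcer1g, Fcgr3, Lyz2, Coro1a, Cd53 and Cd14) and 1, Cd74, was higher in K-LM by 0.95. Of the 13, 61.5% were called, beside 12.5% of all tested genes, and their median was 1.34. Members above background in T-LM alone, such as Tyrobp, pass the filter on dim probes, which favours T-LM in this count and median. Over the 28 alternative settings the count higher in T-LM ran from 1 to 11 and the median from 0.24 to 1.9. Csf1r, Cd68, Itgam, H2-Ab1 and Cd3e did not pass. The defining markers Ptprc, Adgre1, C1qa, C1qb, C1qc and Mrc1 were well above background on fewer than 3 of the 7 arrays. As measured, 12 to 18 of the 23 were above background in T-LM P6 and 8 to 9 in K-LM P6. The mean level of the list was -5.19 to -4.50 in T-LM and -6.86 to -6.65 in K-LM, with no slide term subtracted. For this mean the same RNA read lower on the later slide. P0 was at -6.75 and -6.41 on the earlier slides and -7.54 and -7.16 on the later. KPT replicates 1, 2 and 4 were at -5.9, -6.07 and -6.37, against -6.37, -6.35 and -6.54. The summed level of the list, which the brightest members set, was 1.93 to 2.15 in T-LM and 1.66 to 2.10 in K-LM and overlapped. In bulk RNA, fewer cells of a type and less RNA per cell cannot be told apart. The part of leukocyte RNA in the chemokine and myeloid gene differences was not tested, and the culture described in the methods was meant to leave no GFP-negative cells.

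**Figure D2:**
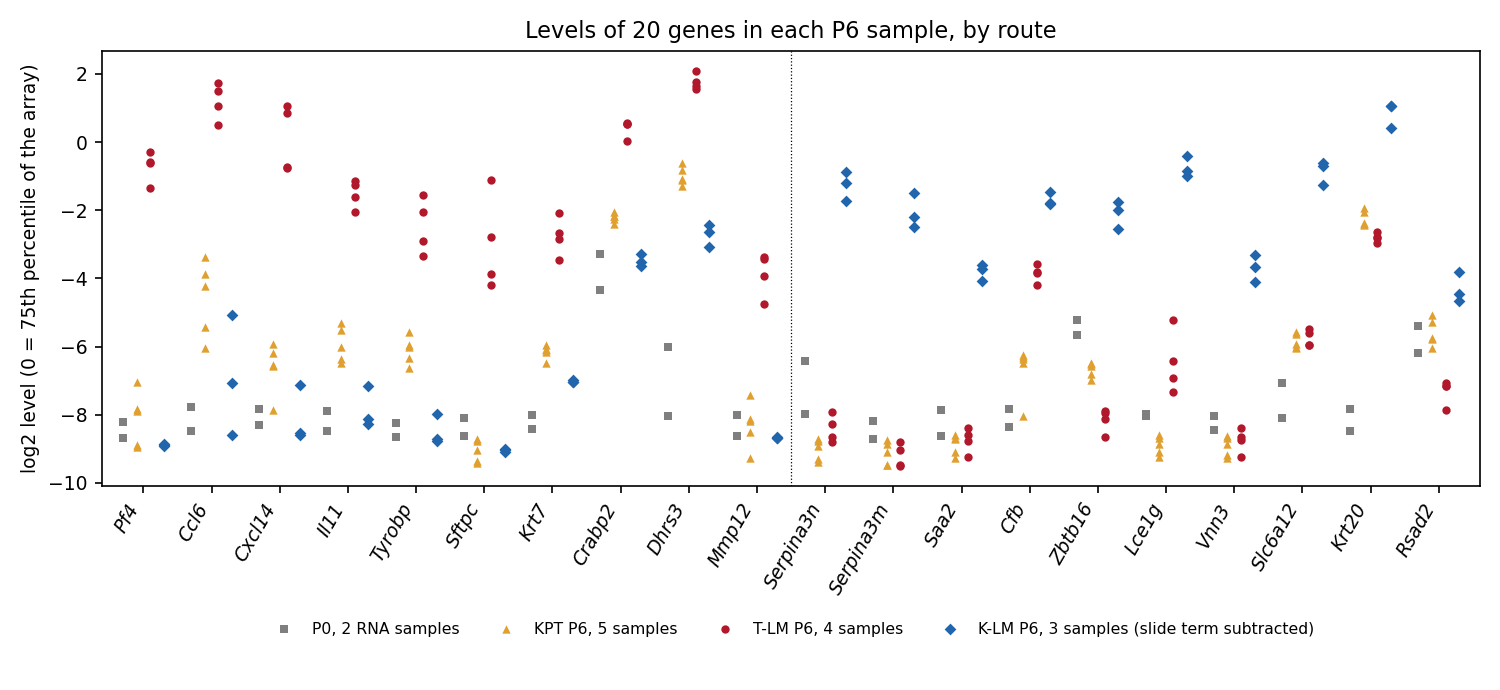
Levels of 20 genes (log2, 0 is the 75th percentile of the array) in each T-LM P6 (red) and K-LM P6 (blue) sample, the latter after subtraction of the slide term. For Pf4, Cxcl14, Il11, Tyrobp and Sftpc the K-LM points lie at -7.12 or lower, and for Serpina3n, Serpina3m, Saa2 and Vnn3 the T-LM points lie at -7.91 or lower. The genes shown are called genes. No called gene overlaps between the routes, and 44.1% of all tested genes do not overlap.

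Some genes of lung epithelium were also higher in T-LM. Sftpc, the surfactant protein of alveolar type II cells, was at -3.88, -1.11, -2.79 and -4.19 in T-LM and at -9.01, -9.08 and -9.04 in K-LM. All T-LM samples were above background, replicate 2 the highest, and T-LM was at least 16-fold higher (6.05 ± 0.86, adjusted p = 0.000143). Sftpd and Sftpb, other surfactant proteins, were at least 3.44-fold and at least 2.49-fold higher, Sftpb with 3 of 4 T-LM arrays above background. Sftpb lost its call in 16 of 28 alternative settings (highest adjusted p = 0.137), among them those without T-LM P6 replicate 1, 2 or 3 or any 1 of the K-LM P6 samples. Lamp3, a lysosomal membrane protein of type II cells, was above background in every sample and differed by 1.37 ± 0.18. In all, 4 of 8 tested lung markers were higher in T-LM (50%, beside 12.5% of all tested genes), none in K-LM, with a median of 1.46. Members above background in T-LM alone, such as Sftpc, pass the filter on dim probes, which favours T-LM in this count and median. Over the 28 alternative settings the count higher in T-LM ran from 1 to 6 and the median from 0.03 to 1.9. Nkx2-1, Slc34a2, Sftpa1 and Scgb3a2 were not above background on 3 of the arrays, and Scgb1a1, the club cell protein, did not pass (-0.80, adjusted p = 0.173). As measured, the summed level of the 12 lung markers was 0.03 to 0.62 in T-LM P6 and -1 to -0.9 in K-LM P6. There were 5 to 8 and 3 genes above background.

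Epithelial junction genes were split. Krt7, a simple epithelial keratin, was at -2.83, -2.09, -2.68 and -3.46 in T-LM and at -7.05, -6.97 and -7.03 in K-LM, at least 19.1-fold apart (4.25 ± 0.38, adjusted p = 1.57e-06). Cdh1, the adherens junction protein E-cadherin, was at -5.55, -4.36, -4.74 and -5.94 in T-LM and at -8.94, -8.87 and -8.89 in K-LM, at least 3.55-fold apart (3.75 ± 0.49, adjusted p = 7.82e-05). T-LM P6 replicate 2 was the highest sample for both, as it was for Sftpc and Sftpb, and the part of lung epithelial RNA in these differences was not tested. Cldn7, a tight junction claudin, was at least 10.1-fold higher in T-LM, and Mal2, a protein of apical transport in epithelia, at least 14.7-fold. Krt20, a keratin of gut and urothelium, ran the other way, with -2.65, -2.8, -2.78 and -2.96 in T-LM against 1.05, 0.41 and 1.05 in K-LM. All 7 arrays measured it, and K-LM was 12.4-fold higher (-3.63 ± 0.37, adjusted p = 5.69e-06). Cldn1 was higher in K-LM too, by 2.7 on the log2 scale, with 2 of 4 T-LM arrays above background. The list of 19 keratins and junction genes held 4 higher in T-LM and 3 higher in K-LM (36.8% called, beside 12.5% of all tested genes). Its median was -0.10.

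Retinoid genes formed the list with the largest positive median in this fit. Of 13 tested, 8 were higher in T-LM (61.5%, beside 12.5% of all tested genes), none in K-LM, and the median was 1.93. Crabp2, which carries retinoic acid to its nuclear receptors, was at 0.53, 0.03, 0.57 and 0.54 in T-LM and at -3.63, -3.29 and -3.52 in K-LM. Both groups were measured on every array and the spread within each was small beside the 14.9-fold difference (3.9 ± 0.25, adjusted p = 6.38e-08). Dhrs3, a reductase that turns retinaldehyde back to retinol, was at 2.1, 1.57, 1.65 and 1.76 in T-LM and at -2.44, -3.08 and -2.65 in K-LM, a 22.6-fold difference (4.5 ± 0.47, adjusted p = 8.86e-06). The enzymes that break down retinoic acid, Cyp26a1 and Cyp26b1, differed by 2.97 and 1.74, the former at background on all K-LM arrays. Aldh1a2, which makes retinoic acid, differed by 3.19, with 1 K-LM array above background. Rbp4 and Rdh10, which bind or oxidise retinol, differed by 2.53 and 1.21. The receptors Rara and Rarg did not pass (-0.54 and 0.24), and neither did Rarb (1.93, adjusted p = 0.0182) or Aldh1a1 (1.31, adjusted p = 0.28). The count of 8 fell to 4 when either K-LM P6 replicate 1 or 2 was left out, and Aldh1a2 was then no longer called.

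Matrix-degrading enzymes and small matrix proteins were mostly higher in T-LM where they were called. Among 14 metalloproteinases and inhibitors, 5 were higher in T-LM and 1 in K-LM (42.9% called, beside 12.5% of all tested genes), with a median of 1.10. Members above background in T-LM alone, such as Mmp12, pass the filter on dim probes, which favours T-LM in this count. Over the 28 alternative settings the count higher in T-LM ran from 1 to 7. Mmp12, macrophage elastase, was at -3.38, -3.44, -3.94 and -4.75 in T-LM and at -8.68, -8.68 and -8.64 in K-LM, at least 8.13-fold apart. Mmp9, a gelatinase, was at least 4.78-fold higher in T-LM. Mmp8, the neutrophil collagenase, differed by 3.39 with 1 K-LM array above background, and the inhibitor Timp3 by 3.45 with all arrays measured. Timp2, another inhibitor, was higher in K-LM by 1.7 on the log2 scale. Plau, the urokinase that activates plasminogen, differed by 1.55. It was the only one of 9 plasminogen system genes to pass (11.1%, beside 12.5% of all tested genes).

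Lum and Ogn, small proteoglycans that bind collagen fibrils, were at least 5.40-fold and at least 6.37-fold higher in T-LM. Col14a1, a fibril-associated collagen, was at least 11.9-fold higher, and Col3a1, a fibrillar collagen, differed by 3.81 ± 0.59. Against these, the 28 collagen genes had a median of -0.03 with 3 higher in T-LM against 2 in K-LM. That is 17.9% called, beside 12.5% of all tested genes. Only 1 of 19 basement membrane genes was called (5.26%), Col18a1, higher in K-LM. Its call was lost without T-LM P6 replicate 1 or 2 or K-LM P6 replicate 1 or 2. Col1a1 and Col1a2, the type I collagen chains, differed by 1.33 and 1.23 and did not pass (adjusted p = 0.178 and 0.154). As measured, the summed level of 12 fibroblast markers was 1.06 to 2.84 in T-LM P6 and 0.10 to 1.86 in K-LM P6, which overlap. Of 10 tested markers 2 were called, both higher in T-LM (20%, beside 12.5% of all tested genes). The part of fibroblast RNA in these differences was not tested.

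Contractile genes that were called were higher in T-LM. Of 23 tested, these were 6 (Actg2, Acta1, Acta2, Tpm1, Tpm2 and Tmsb4x), or 26.1% beside 12.5% of all tested genes. The list had a median of 0.81. Acta2, smooth muscle actin, was at 1.77, 2.67, 0.55 and 0.34 in T-LM and at -2.21, -2.31 and -0.10 in K-LM, a difference of 2.87 ± 0.69 (adjusted p = 0.00773). K-LM P6 replicate 3 lay close to the lowest T-LM sample. No contractile gene was called when K-LM P6 replicate 1 was left out, and 2 were when replicate 2 of that group was. Acta2 was also not called without T-LM P6 replicate 1 or 2.

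Several growth factor genes differed as well. Igf1, insulin-like growth factor 1, was at -4.22, -3.77, -5.10 and -5.10 in T-LM and at -8.58, -7.83 and -8.03 in K-LM, at least 7.42-fold apart (3.59 ± 0.39, adjusted p = 1.07e-05). Its binding proteins Igfbp5 and Igfbp4 were at least 2.56-fold and 2.88-fold higher in T-LM, while Igf2r, the receptor that clears its relative Igf2, and Igfbp6 were higher in K-LM by 0.94 and 0.51 on the log2 scale. Bmp4, a bone morphogenetic protein, differed by 2.38 ± 0.42 (adjusted p = 0.000978). Of 20 genes of BMP and TGF-beta signalling, 5 were higher in T-LM against 1 in K-LM (30% called, beside 12.5% of all tested genes). Over the 28 alternative settings the count higher in T-LM ran from 0 to 6 and the median from -0.09 to 0.44. Trf, the iron carrier transferrin, was at least 16.1-fold higher in T-LM. Bcl2l15, a member of the BCL2 family, was at 1.6, 1.75, 1.88 and 1.9 in T-LM and at -1.72, -3.29 and -0.13 in K-LM, a difference of 3.49 ± 0.61 (adjusted p = 0.000838).

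Acute-phase genes led the genes higher in K-LM. Of 20 tested, 13 were higher in K-LM (65%, beside 12.5% of all tested genes), none in T-LM, and the median was -1.83. Members above background in K-LM alone, such as Serpina3n, pass the filter on dim probes, which favours K-LM in this count and median. Over the 28 alternative settings 6 to 13 acute-phase genes were higher in K-LM, with medians from -1.96 to -1.09. Their promoters are shown because 3 motifs of factors that act on this class can be looked for in them: TTCNNNGAA, the STAT motif, TTGCNNAA, the C/EBP motif, and GGGNNTTTCC, the NF-kappaB motif, each on both strands. The 250 bases before the start come from RefSeq on GRCm38.p6, written 5′ to 3′ on the gene's strand with matches in capitals. Serpina3n lies at chr12:104406458-104406707 on the plus strand, with the NF-kappaB motif 171 bases before the start. Serpina3i, of the same gene cluster, lies at chr12:104262872-104263121 on the plus strand, with the NF-kappaB motif at 154 bases and the STAT motif at 102. Saa2 lies at chr7:46751583-46751832 on the plus strand, with the C/EBP motif at 183 bases.
Serpina3n promoter: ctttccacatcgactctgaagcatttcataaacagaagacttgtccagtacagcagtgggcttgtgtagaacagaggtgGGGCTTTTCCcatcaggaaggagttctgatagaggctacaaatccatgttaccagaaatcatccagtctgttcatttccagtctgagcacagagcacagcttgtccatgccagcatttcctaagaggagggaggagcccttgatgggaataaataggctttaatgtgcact
Serpina3i promoter: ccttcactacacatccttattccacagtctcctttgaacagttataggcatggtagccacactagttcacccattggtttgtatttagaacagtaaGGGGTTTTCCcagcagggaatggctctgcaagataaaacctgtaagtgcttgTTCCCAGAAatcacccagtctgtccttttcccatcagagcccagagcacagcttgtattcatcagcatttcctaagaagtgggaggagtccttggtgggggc
Saa2 promoter: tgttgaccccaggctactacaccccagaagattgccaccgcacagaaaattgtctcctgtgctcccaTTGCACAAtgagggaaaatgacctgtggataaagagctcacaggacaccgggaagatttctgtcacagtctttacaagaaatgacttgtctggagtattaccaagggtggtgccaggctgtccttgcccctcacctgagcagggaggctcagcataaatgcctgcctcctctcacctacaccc
The C/EBP motif was in 7 of the 10 acute-phase genes higher in K-LM that have a promoter in the table. It was in 3 of the 5 that were not called, against 10.8% of all 27025 genes with a promoter. The STAT motif was in 3 and 1, against 8.13%, and the NF-kappaB motif in 3 and 0, against 1.65%. A match is a description of letters and not a bound site.

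Serpina3n, a secreted inhibitor of serine proteases, was at -8.28, -8.79, -7.91 and -8.65 in T-LM and at -1.72, -0.89 and -1.19 in K-LM. No T-LM array was above background and all K-LM arrays were, which made K-LM at least 44.1-fold higher (-7.14 ± 0.50, adjusted p = 1.44e-07). Serpina3m, of the same gene cluster, was at -9.02, -9.47, -9.5 and -8.81 in T-LM and at -2.21, -1.49 and -2.5 in K-LM, at least 15.7-fold higher in K-LM (-7.13 ± 0.33, adjusted p = 4.34e-09). Serpina3c was at least 7.77-fold higher, and Serpina3i, Serpina3f and Serpina3h differed by -3.26, -3.17 and -3.17. The genes of this cluster are near-identical copies and probes may read more than 1 of them, so the members are uncertain as separate results.

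Saa2, an apolipoprotein of the acute phase, was at -8.6, -9.25, -8.77 and -8.39 in T-LM and at -4.08, -3.6 and -3.73 in K-LM, at least 6.17-fold higher in K-LM (-4.95 ± 0.42, adjusted p = 1.08e-06). Its close copy Saa1 was measured in every sample, at -2.64, -2.96, -2.03 and -2.22 in T-LM and at -1.23, -1.09 and -0.45 in K-LM, a 2.90-fold difference. With all 70 arrays in the fit, with a group term or the slide as a random block, Saa1 was no longer called (highest adjusted p = 0.386). Saa3 differed by -1.59. Lrg1, a leucine-rich glycoprotein of serum, differed by -2.76 ± 0.25 (adjusted p = 1.7e-06). The orosomucoids Orm1, Orm2 and Orm3 differed by -1.97, -2.28 and -1.69, and Steap4, a metalloreductase, by -3.36. The acute-phase genes that did not pass were Lcn2, Hp, Cp, Lbp, Itih4, Mt1 and Mt2, with differences of -0.52 to -0.10. Hpx, the fibrinogen chains Fga, Fgb and Fgg, Crp and Apcs were not above background on 3 arrays.

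Of 12 tested complement genes, 4 were higher in K-LM and 2 in T-LM (50% called, beside 12.5% of all tested genes), with a median of -0.30. C3, the central component, was at -1.01, -0.51, -0.43 and -0.53 in T-LM and at 1.43, 1.64 and 1.01 in K-LM, a 3.95-fold difference (-1.98 ± 0.19, adjusted p = 4.23e-06). Cfb, factor B of the alternative pathway, and C4b of the classical pathway differed by -2.17 ± 0.25 and -2.65 ± 0.30, and C2 by -1.58. Cfp, properdin, and Cd55, which dissolves the convertase, were higher in T-LM, by 1.74 and 1.6. With all 70 arrays in the fit, with a group term or the slide as a random block, Cfb, C4b and Cfp were no longer called (highest adjusted p = 0.292, 0.0759 and 0.28).

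Interferon-stimulated genes that were called were mostly higher in K-LM. Of 29 tested, 11 were higher in K-LM and 1, Ifi27l2a, in T-LM (41.4% called, beside 12.5% of all tested genes), with a median of -1.06. The interferon response element GAAANNGAAA, on both strands, was in 8 of the 10 K-LM-higher members with a promoter in the table. It was in 3 of the 12 not called, against 3.46% of all genes with a promoter. Isg15 is shown for 3 matches that overlap each other, and Rsad2 for a match on the opposite strand. Isg15 lies at chr4:156200819-156201068 on the minus strand, with matches 78, 72 and 66 bases before the start, and Rsad2 at chr12:26456453-26456702 on the minus strand, with its match 120 bases before the start.
Isg15 promoter: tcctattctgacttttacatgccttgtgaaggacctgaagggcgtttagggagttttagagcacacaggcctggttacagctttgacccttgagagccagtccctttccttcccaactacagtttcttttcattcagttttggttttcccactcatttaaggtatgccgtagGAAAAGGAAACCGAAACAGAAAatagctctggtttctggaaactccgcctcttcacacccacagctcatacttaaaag
Rsad2 promoter: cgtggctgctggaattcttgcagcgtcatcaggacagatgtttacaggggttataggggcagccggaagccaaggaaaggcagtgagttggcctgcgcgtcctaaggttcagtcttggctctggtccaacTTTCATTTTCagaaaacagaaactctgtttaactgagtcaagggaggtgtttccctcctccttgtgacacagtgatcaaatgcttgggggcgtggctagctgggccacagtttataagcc
Rsad2, the antiviral enzyme viperin, was at -7.85, -7.15, -7.07 and -7.17 in T-LM and at -3.82, -4.67 and -4.45 in K-LM. It was above background in K-LM alone and at least 5.97-fold higher there (-3 ± 0.34, adjusted p = 1.67e-05). Usp18, which removes the ubiquitin-like ISG15, was at -3.95, -4.22, -3.17 and -3.17 in T-LM and at -1.26, -1.57 and -1.58 in K-LM, a 4.46-fold difference. Ifit1, which binds viral RNA, differed by -2.48 with 1 T-LM array above background, and Isg15 and Ifit3 by -1.44 and -1.43. Bst2, Stat2, Ddx58, Gbp3, Oas1a and Xaf1 differed by -1.29 to -1.06. Ifit2, Irf9, Ifih1, Parp14 and Zbp1 lay between -0.18 and 0.19 and did not pass, and neither did Irf7 and Oasl2, at -1.5 and -1.22. Among 15 genes of MHC class I presentation, only Tapbp and Tap2 were called, by -1.02 and -0.85 (13.3%, beside 12.5% of all tested genes). That list had a median of -0.23. Ifi27l2a lost its call without T-LM P6 replicate 1 or 2 or K-LM P6 replicate 1, and Tap2 when any 1 of T-LM P6 replicates 1, 2 and 4 or of the K-LM P6 samples was left out. The count of 11 interferon-stimulated genes fell to 8 without K-LM P6 replicate 1, to 5 when the slide difference came from the P0 RNA samples, and with all 70 arrays in the fit to 3, or to 1 with the slide as a random block, while the median stayed between -1.19 and -0.79 under all 28 settings.

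Genes of other families stood far apart with the same direction. Zbtb16, a zinc-finger transcriptional repressor, was at -8.11, -8.66, -7.89 and -7.96 in T-LM and at -1.76, -2 and -2.54 in K-LM, at least 25.6-fold higher in K-LM (-6.06 ± 0.29, adjusted p = 4.34e-09). Lce1g, of the late cornified envelope proteins of epidermis, was at -6.91, -5.23, -6.42 and -7.34 in T-LM and at -0.99, -0.86 and -0.42 in K-LM, with 2 T-LM arrays above background (-5.72 ± 0.40, adjusted p = 1.55e-07). Lce1i, Lce1f and Lce1c of the same cluster differed by -5.22, -4.63 and -3.87, and probes may read more than 1 of these copies. Vnn3, a vanin of the pantetheinase family, was at least 5.89-fold higher in K-LM (-5.07 ± 0.26, adjusted p = 7.44e-09).

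Membrane transporters were among the same group. Slc6a12, a carrier of betaine and GABA, was measured in every sample, at -5.96, -5.6, -5.49 and -5.96 in T-LM and at -0.61, -0.71 and -1.26 in K-LM, a 29.7-fold difference (-4.89 ± 0.35, adjusted p = 1.6e-07). Slc10a6, a carrier of steroid sulphates, and Slc28a2, a nucleoside carrier, were at least 11.2-fold and at least 5.05-fold higher in K-LM. Asb9, a substrate adaptor of ubiquitin ligases, was at least 6.41-fold higher. Maoa, which oxidises monoamines, differed by -1.89 ± 0.18 with all arrays measured.

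Of the inhibitors of the cell cycle, Cdkn2a and Cdkn1a were higher in K-LM, and Cdkn1b and Cdkn2b did not pass (-0.02 and 0.87). Cdkn2a, the p16 and p19 locus, was at -6.81, -7.29, -7.59 and -8.51 in T-LM, all at background, and at -4.53, -5.29 and -3.31 in K-LM, at least 3.03-fold higher (-3.17 ± 0.51, adjusted p = 0.000413). Cdkn1a, the inhibitor p21, was at -1.67, -1.55, -1.67 and -1.95 in T-LM and at -0.23, -0.46 and -0.15 in K-LM, a 2.70-fold difference. Ccnd3 and E2f1 were also called, by -0.72 and -0.64, and the other 24 of 28 cell cycle genes were not. Each of the pair lost its call in 19 of 28 alternative settings, among them those without T-LM P6 replicate 1, 2 or 4 or any 1 of the K-LM P6 samples, and a further Ccnd3 probe did not pass (-0.68, adjusted p = 0.025). Mki67, the proliferation antigen, differed by 0.27 (adjusted p = 0.571) and Pcna by 0.21 (adjusted p = 0.52). The cell cycle list had 14.3% of its genes called, beside 12.5% of all tested genes, and a median of 0.03. Of 25 hypoxia and glycolysis genes, Slc2a1, Ndrg1, Pfkp and Adm were higher in K-LM by 0.75 to 1.18 on the log2 scale. Kdm3a was higher in T-LM, which made 20% of the list called, beside 12.5% of all tested genes. Slc2a1 was not called without T-LM P6 replicate 1 or 2 or K-LM P6 replicate 1 or 3, nor Ndrg1 without K-LM P6 replicate 1 or 2. Vhl, Hif1a and Epas1, the core of oxygen sensing, did not pass, at -0.26, -0.23 and -0.42.

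**Figure D3:**
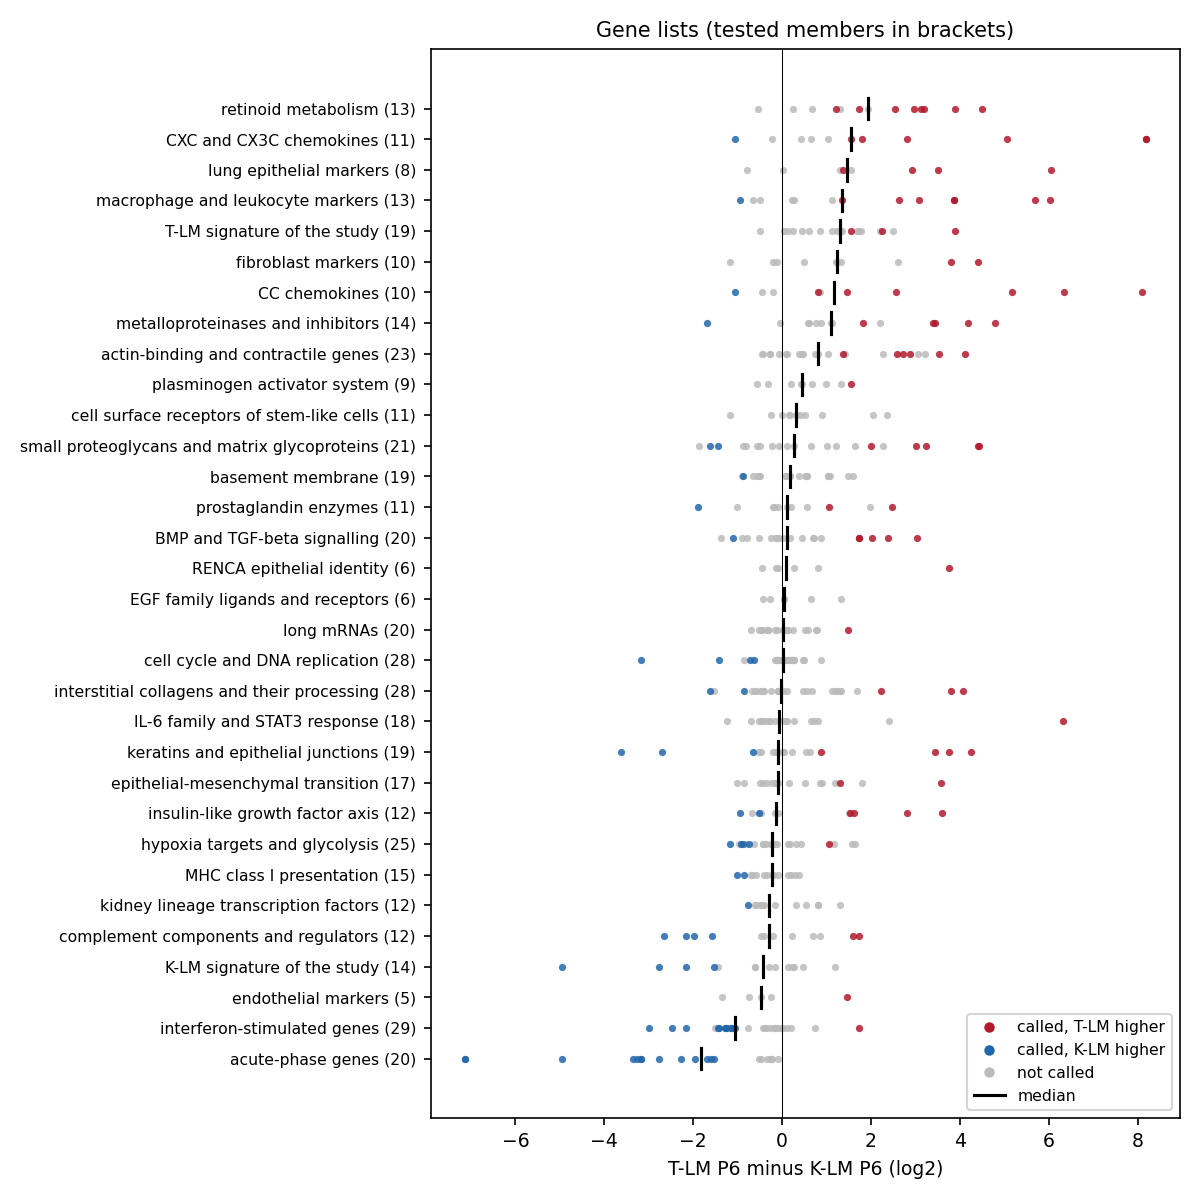
For each gene list, small points are its tested members by T-LM P6 minus K-LM P6 (log2), coloured red where called higher in T-LM, blue where called higher in K-LM and grey otherwise, and the black mark is the median. The medians run from -1.83 for acute-phase genes to 1.93 for retinoid metabolism, beside 0.02 over all tested genes.

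Lists named for cell state held 0 to 3 called genes each, beside 12.5% of all tested genes. None of 6 EGF family genes and none of 11 surface receptors of stem-like cells passed. Cd44 differed by -0.01 (95% interval -0.52 to 0.49) and Nt5e, which encodes CD73, by 0.31 (-0.58 to 1.20), and both signs turned under some of the 28 alternative settings. Of 17 genes of epithelial-mesenchymal transition, Tgfbi and Tgfb2 were higher in T-LM and none in K-LM (11.8% called), with a median of -0.10. The call of Tgfb2 was lost in 22 of 28 alternative settings, among them those without T-LM P6 replicate 1 or 3 or any 1 of the K-LM P6 samples. Vim, the mesenchymal filament vimentin, differed by -0.44 (adjusted p = 0.0431). Of 12 kidney lineage transcription factors only Tfcp2l1 was called (8.33%), higher in K-LM by 0.76 on the log2 scale, and it lost the call in 13 of the settings, among them those without T-LM P6 replicate 1, 3 or 4 or K-LM P6 replicate 1 or 2. Of 11 prostaglandin genes, Tbxas1 and Pla2g4a were higher in T-LM and Maoa in K-LM (27.3%). The signature genes that the study chose on these same samples are not independent evidence of direction. Of its T-LM genes, 3 of 19 (Crabp2, Pigz and Plau) were higher in T-LM (15.8% called). Of its K-LM genes, 4 of 14 (Saa1, Saa2, Cfb and Lrg1) were higher in K-LM (28.6% called), beside 12.5% of all tested genes. With all 70 arrays in the fit, with a group term or the slide as a random block, Pigz, Plau, Saa1 and Cfb were no longer called.

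Both routes were set beside the unpassaged cells, which enter both differences. Differences from P0 and KPT are fitted values, and no lower bound was set where P0 or KPT was at background. Krt20 was 5.7 above P0 in T-LM and 9.33 above it in K-LM, and C4b was 4.6 and 7.25 above, both on the log2 scale. Cfb was 4.41 and 6.58 above P0. For these genes the level was higher than P0 in either route and the routes differed in how far. Dhrs3 was 8.78 above P0 in T-LM and 4.28 above it in K-LM, and Tmsb4x, an actin-binding peptide, 10.77 and 8.19. C3 was 1.37 below P0 in T-LM (-1.37, adjusted p = 1.65e-05) and 0.61 above it in K-LM (adjusted p = 0.0231). Il11 was 6.72 above P0 in T-LM and 0.39 in K-LM (adjusted p = 0.468), and Serpina3n was 5.69 above P0 in K-LM, where T-LM gave -1.45 (adjusted p = 0.0222). Against the KPT lines of the same passage, Krt20 gave -0.77 in T-LM (adjusted p = 0.108) and 2.86 in K-LM, Cfb 2.42 and 4.59, and Crabp2 2.6 and -1.3.

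The same comparison was made at passages 4 and 5, in samples that the P6 comparison did not use and that all lie on the earlier slides. At P4, with 4 T-LM and 3 K-LM samples, 103 of 19784 probes were called (0.521%), 75 higher in T-LM (0.379%) and 28 higher in K-LM (0.142%). At P5, with 6 T-LM and 4 K-LM samples, 439 of 17858 probes were called (2.46%), 236 higher in T-LM (1.32%) and 203 higher in K-LM (1.14%). The P4 count was 29 without K-LM P4 replicate 5, 46 without T-LM P4 replicate 2, 57 without T-LM P4 replicate 4 and 197 without K-LM P4 replicate 1. The P5 count was 108, 97, 103 and 78 without K-LM P5 replicates 2, 3, 5 and 6, and 225, 170 and 122 without T-LM P5 replicates 3, 4 and 5.

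Of the genes higher in T-LM at P6, 81.1% of 803 tested at P4 had the same sign there, and 20% of 681 tested at P5, against 48.5% and 49.5% of all genes. Of those higher in K-LM, 80.7% of 507 had the same sign at P4 and 34% of 517 at P5, against 51.5% and 50.5%. Thus P4 mostly ran the same way as P6 and P5 mostly ran against it, for either direction. Over the alternative settings these shares ranged from 77.6% to 85.6% and from 16.3% to 26.7% for genes higher in T-LM, and from 74.4% to 82.4% and from 32.7% to 36.2% for genes higher in K-LM. Long mRNAs, a sign of RNA integrity, moved with the passage: the median T-LM minus K-LM of the list was 0.03 at P6, -0.66 at P4 and 1.01 at P5, where 4 of 19 were called higher in T-LM. Ribosomal protein mRNAs gave -0.08, -0.04 and 0.10. The part of RNA integrity in the P5 difference was not tested.

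**Figure D4:**
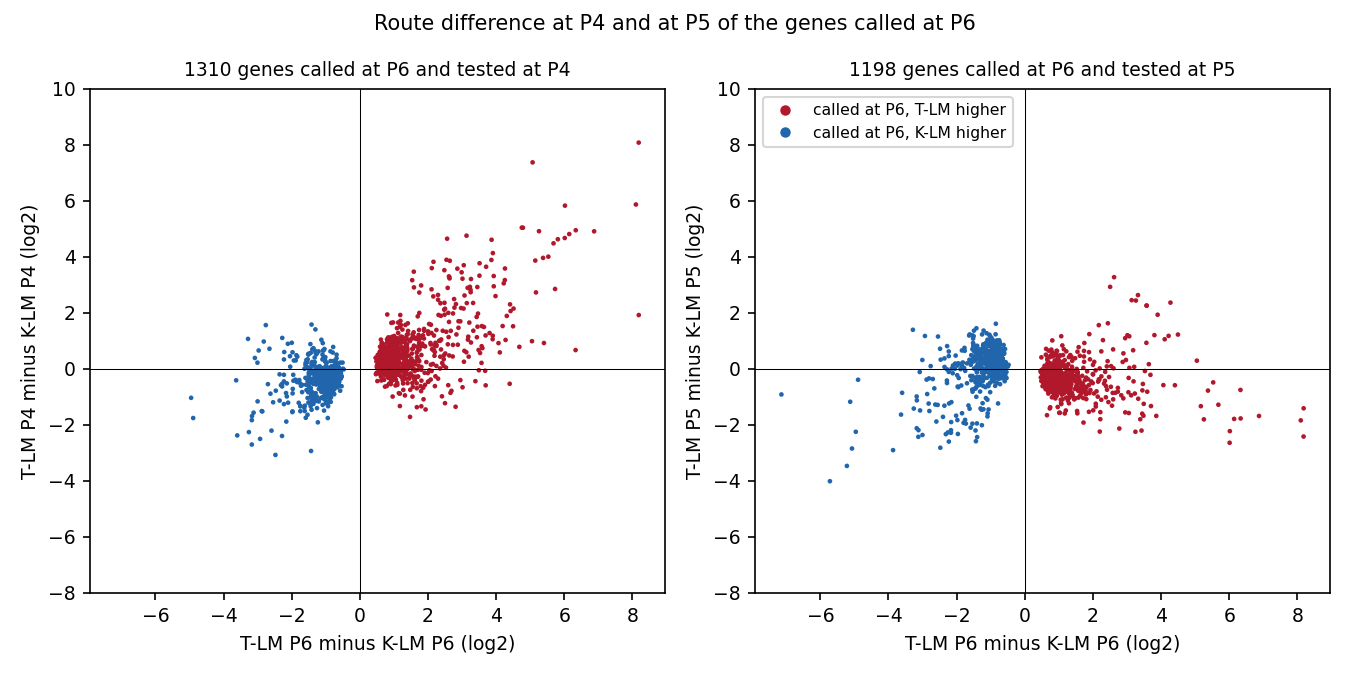
Genes called at P6, by T-LM minus K-LM at P6 on the x axis and at P4 (left) or P5 (right) on the y axis, both log2, red for higher in T-LM at P6 and blue for higher in K-LM. On the left 81.1% of red and 80.7% of blue points share the sign of P6, and on the right 20% and 34%.

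Single genes show what lies behind these shares. Pf4 was at 0.47, 0.62, 1.65 and 1.03 in T-LM P4 and at -6.59, -8.38 and -6.45 in K-LM P4, a difference of 8.08 (adjusted p = 0.00125). At P5 it was at -0.52 in T-LM replicate 1 and between -6.46 and -5.24 in the other T-LM samples, against -3.69, -2.91, -3.13 and -1.15 in K-LM. A single T-LM P5 sample thus resembled the T-LM samples of P4 and P6, and the rest lay below K-LM. Ccl6 had 2.16 in the same T-LM P5 sample and -4.58 to -3.27 in the others. Tyrobp had -1.42 in it and -7.72 to -6.30 in the others. T-LM P5 replicate 1 also had the highest summed fibroblast markers of its group. Cxcl14 was at -8.63, -1.52 and -0.15 in K-LM P4 and between -2.66 and 0.33 in T-LM P4, a difference of 1.92 (adjusted p = 0.562). It was well above background on 2 of the 3 K-LM P4 arrays and on all 4 K-LM P5 arrays. Il11 was well above background on the same numbers of K-LM arrays, at -6.94, -2.75 and -1.4 in K-LM P4 against -4.5 to -2.11 in T-LM P4. The change of the route difference from P5 to P6 was called for Pf4 (10.6, adjusted p = 0.000421), Ccl6, Tyrobp, Cxcl14 and Il11 among others, and over all probes for 1792 of 19895 (9.01%), 1116 towards T-LM (5.61%) and 676 towards K-LM (3.4%). That count was 991 when K-LM P6 replicate 1 was left out and 989 for replicate 2 of that group.

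Of the genes higher in K-LM at P6 and tested at P5, 27 of 517 were called in the same direction there (5.22%) and 23 in the opposite one, while 1.07% of all genes were called higher in K-LM at P5. Of those higher in T-LM at P6, 11 of 681 were called in the same direction (1.62%, against 1.5% of all genes) and 21 in the opposite one. Among the genes called the same way, Lce1g was at -2.77, -3.15, -2.22 and -2.81 in K-LM P5 and between -7.62 and -5.46 in T-LM P5 (-4.01 ± 0.69, adjusted p = 0.00382). Vnn3 and Slc28a2 differed by -2.84 and -2.25 at P5, Cfb by -2.28, and the interferon target Ifit1 by -2.82. For none of these 5 did the change from P5 to P6 pass the test. Crabp2 was higher in T-LM at P5 too, at -0.01, -0.93, -0.58, -0.65, 0.04 and -1.01 against -1.8, -2.85, -2.37 and -2.82 in K-LM (1.94 ± 0.39, adjusted p = 0.0069). By contrast, Serpina3m lay between -8.83 and -8.33 in K-LM P5, at background in all 4 samples, and between -9.44 and -8.8 in K-LM P4. Zbtb16 lay between -7.73 and -6.76 in K-LM P5, also at background. For both the change from P5 to P6 was called (-8.01, adjusted p = 1.32e-07, and -5.39, adjusted p = 1.4e-07), so that their high level in K-LM was seen at P6 alone among passages 4 to 6.

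**Figure D5:**
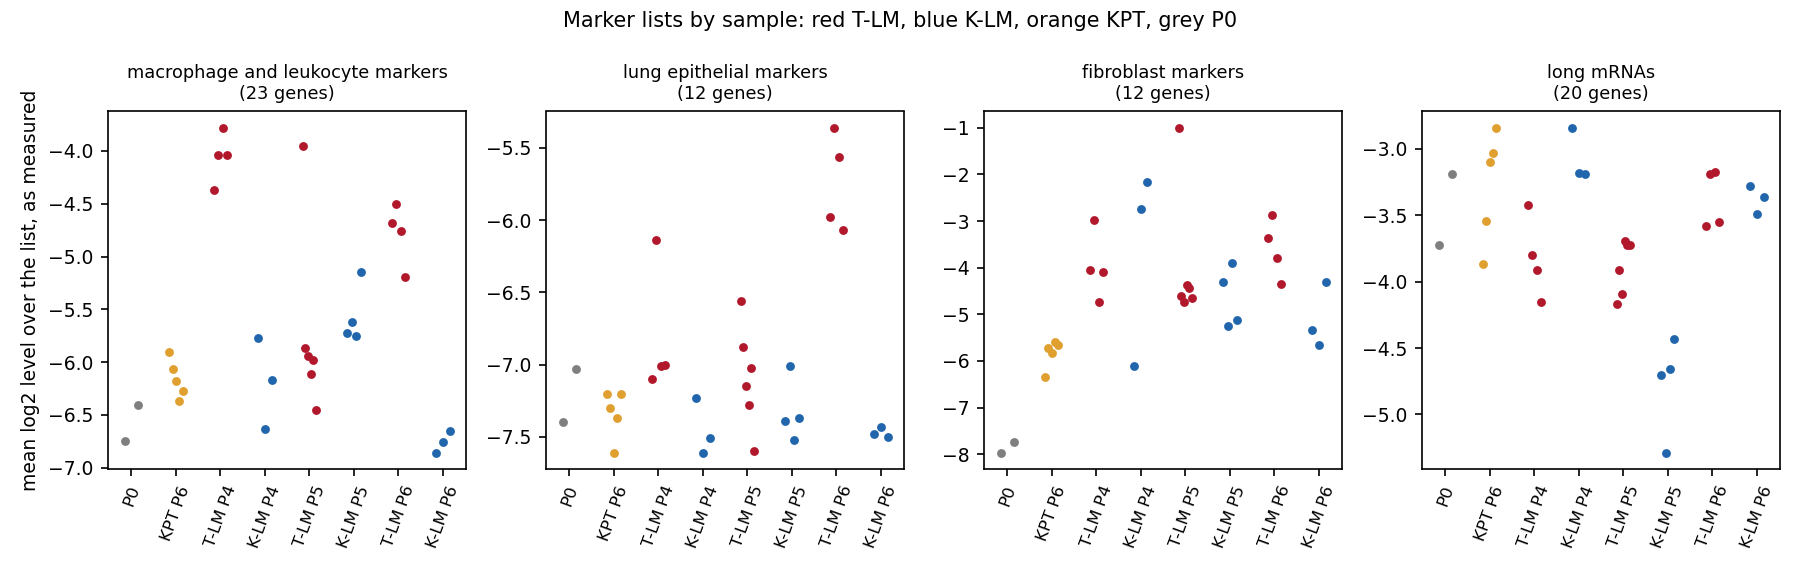
Mean log2 level, as measured, of the macrophage and leukocyte, lung epithelial and fibroblast markers and of the long mRNAs in each sample of P0, KPT P6 and the T-LM and K-LM groups of P4, P5 and P6. Each point is 1 array. The K-LM P6 arrays lie on the later slide and no slide term is subtracted. For the leukocyte list the same P0 and KPT RNA read lower on that slide. The leukocyte mean lies between -5.19 and -4.50 in T-LM P6 and between -6.86 and -6.65 in K-LM P6, and T-LM P5 replicate 1 stands above the other T-LM P5 samples.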

How the data were processed

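The authors deposited the scanner output of each single-colour Agilent array, in which every probe has a background-subtracted Cy5 intensity, and a table of log2 values, which matched quantile-normalized median signals to within 0.105 and served as an alternative. The authors' within-route comparisons used limma at an adjusted p of 0.01, and that threshold was kept. RNA was total RNA, and the labels give homogenised samples and column extraction. Feature extraction software was version 11.0.1.1 on the earlier slides and 12.0.2.2 on the later slide, per the file headers. Of 62976 spots per array, 3671 controls and spots marked as outliers (0.366%) were left out, and the rest averaged to 55681 probes. Gene names came from RefSeq accessions (28026 probes, 21154 symbols), and 27655 probes had none. No probe value was saturated in the fit.

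Log2 intensities were scaled by each array's 75th percentile over the 12219 probes well above background on all 70 arrays. The written plan named the green channel, but the files hold Cy5 columns and these were used, and normexp took median in place of mean signals. Probes well above background on at least 3 of the 7 arrays were tested with limma 3.58.1 (statmod 1.5.0, R 4.3.3) on 17 arrays, with group and later-slide terms and a random block for repeated RNA (correlation 0.405 from 4000 probes, 12 residual degrees of freedom). P-values are 2-sided with Benjamini-Hochberg adjustment over all tested probes. A gene is represented by its brightest probe. A probe above background in 1 route alone can pass the filter, and its direction is then set by the filter. A fold of "at least" sets a group at background to the lowest signal well above background, or to its own signal where that is higher. P4 and P5 arrays were fitted together without block, and the change from P5 to P6 was fitted on all 70 arrays. The steps were tested on simulated data with 200 changed probes of 19547, of which 56.7%, 91% and 98.5% were recovered at differences of 1, 2 and 4 (log2) with 1 false call.

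Named genes were the 15 largest called in each direction with non-overlapping samples, leaving out clone and model names, up to 4 called members of each gene list, 2 bright members where none was called, and 20 genes of the study. The groups, gene lists and rules were chosen with earlier results of these data known. Other called members of a list are given by value only. Alternatives changed the slide term, arrays in the fit, scaling, background correction, filter, replicate block and left-out samples. Serpina3g, Cxcl11, Mx1, Mx2, Psme2, Prelp, H19, Kmt2a and Hist1h1e matched no probe. Columns of the scanner files other than the Cy5 signals and their flags were not used. Some members of the gene lists are not reported here by name.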

Additional observations from a re-analysis of the deposited data

Results flagged for a closer look

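In 6 of 144 groups of samples examined, 1 sample stood far from the others, where chance alone marks about 1 in 20 groups. In T-LM P6, Lce1f was at -7.48 in replicate 3 against -8.65 to -8.49 in the others, and Rsad2 at -7.85 in replicate 1 against -7.17 to -7.07, all of them at background. T-LM P6 replicate 2 stood apart for 3 genes: Slc2a1, the glucose carrier, at 0.91 against 1.34 to 1.39, Crabp2 at 0.03 against 0.53 to 0.57, and Hif1a at 0.12 against -0.50 to -0.45. The summed level of the fibroblast markers was 5.44 in T-LM P5 replicate 1 and 0.83 to 1.72 in the other T-LM P5 samples.

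The difference between the routes changed from P5 to P6 for 51 of the 116 named genes in the interaction test of limma, 34 towards T-LM and 17 towards K-LM. Over all probes the share was 9.01%. Most named genes were chosen for their difference at P6, which by itself favours a change against P5, so nothing is read from the count. The values that follow are the T-LM minus K-LM difference at P6 less that at P5, on the log2 scale. Towards T-LM, chemokine genes gave 9.58 for Cxcl14, 10.6 for Pf4, 10 for Ccl6, 8.17 for Ccl9, 6.52 for Ccl3 and 2.68 for Ppbp. Myeloid genes gave 8.62 for Clec4n, 7.95 for Bcl2a1d, 8.26 for Tyrobp, 8.69 for Wfdc17, 6.52 for Cd52, 5.38 for H2-Eb1, 6.96 for Fcer1g, 4.51 for Fcgr3, 5.54 for Lyz2 and 5.85 for Mmp12. Lung and other epithelial genes gave 5.85 for Sftpc, 3.09 for Sftpd, 1.55 for Lamp3, 5.57 for Mal2, 3.29 for Cdh1, 3.88 for Krt7 and 3 for Cldn7. Growth factor, matrix and retinoid genes gave 7.12 for Il11, 6.04 for Trf, 4.64 for Col14a1, 3.74 for Ogn, 2.1 for Plau, 3.43 for Bmp4, 2.89 for Id2, 4.41 for Igf1, 1.87 for Pappa2, 3.25 for Dhrs3 and 1.73 for Kdm3a.

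Towards K-LM, acute-phase and complement genes gave -6.24 for Serpina3n, -8.01 for Serpina3m, -5.01 for Serpina3c, -2.84 for Lrg1 and -1.75 for C3. Transporter and other genes gave -5.39 for Zbtb16, -3.93 for Slc10a6, -4.5 for Slc6a12, -4.11 for Asb9, -2.98 for Lce1f and -1.7 for Tfcp2l1. Hypoxia and cell cycle genes gave -1.74 for Ndrg1, -1.42 for Pfkp, -1.22 for Slc2a1, -0.78 for Epas1, -1.83 for Cdkn1a and -0.92 for E2f1. Long mRNAs differed between the routes at P5 by a median of 1.01 and at P6 by 0.03, and the part of this in the changes was not tested.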

How the results depend on the processing

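For T-LM P6 minus K-LM P6, no called named gene changed sign under any of the 28 alternative settings. Of the 2149 called probes, 2 changed sign without the slide term and 3 with dim probes raised to a floor. Of the named genes that were not called, Cd24a, Abcg2, Cd44, Nt5e and Hif1a had both signs among the settings, Nt5e from -0.63 to 0.94. Of 3188 values of 116 named genes under these settings, 2770 stayed on the same side of the threshold, 412 were no longer called and 6 were newly called, and 36 called genes kept their call under every setting. The number of probes higher in K-LM was 1214 without a slide term, 514 with the slide difference taken from the KPT samples and 1201 with a percentile over all probes, where it exceeded the 955 higher in T-LM. With the slide difference from the P0 samples 1187 probes were called (712 higher in T-LM, 475 in K-LM), with all 70 arrays and a group term 801 (510 and 291), with the slide as a random block 435 (285 and 150) and with no filter on dim probes 1218 (768 and 450). Leaving out 1 sample gave 1191 to 2194 called probes, 757 to 1420 higher in T-LM and 434 to 830 higher in K-LM, the lowest without K-LM P6 replicate 1. The other alternatives stayed within 1.5 times of the counts given. Among the lists, acute-phase genes higher in K-LM numbered 6 to 13 over the settings and interferon-stimulated genes 1 to 13. Genes higher in T-LM numbered 1 to 7 for CC chemokines, 2 to 8 for CXC chemokines and 1 to 11 for leukocyte markers. They numbered 1 to 6 for lung markers, 3 to 10 for retinoid genes and 0 to 10 for contractile genes.

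Deviations of same-numbered T-LM and K-LM samples of P6 from their group means had correlations of -0.16, -0.26 and -0.22. Those of differently numbered samples ran from -0.37 to 0.34. Groups this small cannot decide whether the numbers pair the samples. With the number as a replicate block, 1498 probes were called at P6 (957 higher in T-LM, 541 in K-LM), 90 at P5 and 25 at P4. The slide difference was called for 702 probes in the series value table, 27962 with no filter, 95 with the RNA sample as a fixed block, and 492 to 1888 with 1 sample left out. At P5 the count was 104 with no filter and 78 to 556 with 1 sample left out. At P4 it was 41 with the arrays of that passage alone and 29 to 197 with 1 sample left out. The change from P5 to P6 gave 989 to 1922 probes with 1 sample left out. The fixed block for the slide, the alternatives for P4 and for the change from P5 to P6, and those for the gene lists were chosen after seeing the data. The causes were not tested. Signal over background limits all values of probes that 1 route does not show above background: 160 of the 862 genes higher in T-LM were above background on no K-LM array, and 59 of the 566 higher in K-LM on no T-LM array.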

Other observations

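Endothelial markers were scarce in either route. Of 12, 5 were tested, and 1 was called (20%, beside 12.5% of all tested genes). This was Egfl7, a secreted protein of vessels, higher in T-LM by 1.47 ± 0.30 (adjusted p = 0.00273), a call lost without K-LM P6 replicate 2. Pecam1, Cdh5, Tek and Tie1 were well above background on fewer than 3 of the 7 arrays. The summed level of the 12 markers was -0.96 to -0.53 in T-LM P6 and -0.91 to -0.82 in K-LM P6, as measured.

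Some secreted matrix proteins were higher in K-LM while their relatives were higher in T-LM. Fbln1 and Efemp1, of the fibulin family, differed by -1.62 and -1.44, and Fbln5 of the same family by 3.01 (adjusted p = 0.00937, with 1 K-LM array above background). Fbln5 lost its call without any 1 of the T-LM P6 samples or K-LM P6 replicate 1 or 2. Mgp, the matrix Gla protein that keeps tissue from calcifying, was at -0.38, -0.16, -1.35 and -1.89 in T-LM and at 0.19, 0.54 and 2.06 in K-LM, and did not pass (-1.88 ± 0.65, adjusted p = 0.0508). As fitted, it was 7.96 above P0 in T-LM and 9.83 above it in K-LM on the log2 scale, with no bound set for P0 at background. Where a named gene had a further tested probe, 17 of 19 such probes in 18 genes had the sign of the brightest probe, and none was called in the opposite direction.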
